A study of Danio rerio with 9 samples.

Results

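The genes described here encode the subunits of the proteasome, the protease complex that degrades proteins marked with ubiquitin. They were chosen as the rows of the count table whose symbol starts with psma, psmb, psmc, psmd or psme followed by a digit, and 55 of 32520 gene IDs met that rule. Polyadenylated RNA was sequenced from whole zebrafish (Danio rerio) at 30 hours after fertilisation, with 30 embryos in a pool and 3 pools for each of 3 genotypes of npc2, the gene of a cholesterol-carrying protein in the lumen of lysosomes. Homozygous embryos were MZnpc2m/m and heterozygous embryos were Mnpc2+/m, where in zebrafish notation M marks the loss of the mother's product and Z that of the embryo's own. These 2 groups were siblings and were sorted by how they looked. Wild-type embryos (npc2+/+) had other parents, wild-type adults that were siblings of the mutants' parents. Mother, cross and genotype therefore cannot be told apart in either comparison with wild type, while homozygous and heterozygous embryos shared their crosses. Whether pools came from separate clutches is not stated, so the spread behind each p-value may be partly technical.

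The 26S proteasome has a barrel, the 20S core particle, capped by a regulatory particle called 19S. The core is built from rings of alpha subunits (psma genes), which gate the entrance, and rings of beta subunits (psmb genes), of which 3 kinds cut peptide bonds. The base of the cap holds a ring of ATPases (psmc genes) that unfold substrates and thread them into the core, and the lid (psmd genes) holds the enzyme that removes ubiquitin. Other caps, the activators PA28 and PA200 (psme genes), open the core without using ATP or ubiquitin. In immune cells and under interferon, some beta subunits are exchanged for immune forms (PSMB8, PSMB9 and PSMB10) that favour peptides for antigen presentation. When proteasomes fall short, the transcription factor NFE2L1 raises the genes of most subunits together.

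By role, the 55 rows held 9 alpha ring, 7 constitutive beta ring, 12 base, 9 lid and 3 cap assembly chaperone genes, 5 activator genes, 7 immune or tissue-specific beta genes, and 3 rows whose symbols fit no role. Of these 3, psma6l resembles PSMA6 by name, whereas PSMC3IP acts in meiotic recombination in mammals and PSME3IP1 binds PSME3, so neither is a proteasome subunit. A total of 48 of the 55 passed the filter on low counts and were tested, among 20375 genes. Libraries held 38564405 to 69360234 counts. NPC2 (ENSDARG00000090912), the mutated gene, was at 32.6 to 44.3 CPM (counts after library-size scaling with factors from the trimmed mean of M values) in homozygous, 142 to 146 CPM in heterozygous and 256 to 278 CPM in wild-type pools, so the libraries followed their labels. CPM is not corrected for transcript length, so levels are compared between genotypes and not between genes.

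The genes of the proteasome were highest in heterozygous embryos. Summed over the 55 rows, they were at 4485, 4442 and 4641 CPM in homozygous pools, 5426, 5446 and 5612 CPM in heterozygous pools and 4594, 4519.6 and 4714 CPM in wild-type pools. The heterozygous pools lay apart from and above the 6 others, while homozygous and wild-type pools overlapped. The heterozygous mean was 19.2% above the wild-type mean, and the homozygous mean was 17.7% below the heterozygous mean and differed by -1.88% from the wild-type mean. Single genes were called at an adjusted p under 0.05 in edgeR's quasi-likelihood test. In heterozygous against wild-type embryos, 31 of 48 tested members rose, where 15.5% of all tested genes rose. In homozygous against heterozygous embryos, 33 of 48 fell, where 19.4% of all tested genes fell, and 1, PSME2, rose, where 20.4% of all tested genes rose. In homozygous against wild-type embryos, 6 rose and 5 fell, where 23.5% and 21.1% of all tested genes did. The libraries of each genotype enter 2 of these comparisons, so the rise and the fall both rest on the same heterozygous pools.

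Most changes were small, though not alike in size. The median log2 fold change of the 48 was 0.27 in heterozygous against wild-type embryos (0.00 over all tested genes), -0.25 in homozygous against heterozygous embryos (0.01) and -0.03 in homozygous against wild-type embryos (0.02). No tested member fell in heterozygous against wild-type embryos by edgeR, DESeq2 or limma-voom, and 0 did so at an unadjusted p under 0.05 in edgeR, where 14.4% of all tested genes fell. Without heterozygous replicate 3, 1 did, PSME3IP1 (-0.22, adjusted p = 0.0242). Genes with more counts are called more readily. Among the 9516 genes with a mean of 10 CPM or more over the 9 libraries, 23.1% rose in heterozygous against wild-type embryos and 32.3% fell in homozygous against heterozygous embryos. Of the 37 subunit genes outside the immune role with such a mean, a set taken after the data were seen, 29 rose and 32 fell in these comparisons. None of the 37 moved the other way, where 19.1% and 23.8% of genes of that level did. The log2 fold changes of the 37 ran from -0.02 to 0.47 in the first of these comparisons and from -0.52 to -0.04 in the second. In homozygous against wild-type embryos, 2 of the 37 rose and 5 fell, against 27.2% and 30.4%. The 3 heterozygous libraries were all above the 3 wild-type libraries for 35 of 48 members and all below them for 0, where 21.8% and 20.9% of all tested genes had such groups. The homozygous libraries were all below the heterozygous ones for 34 and all above them for 2, where 24.7% and 26.5% of all tested genes were. Against wild-type libraries, the homozygous ones were all above for 10 and all below for 13, against 28.6% and 25.3%. The 3 heterozygous libraries were all above the 6 others for 28 of 48 tested members, against 9.59% of all tested genes, and all below them for 0 of 48, against 8.21%. A total of 27 members were called both higher in heterozygous than wild-type and lower in homozygous than heterozygous embryos, against 6.45% of all tested genes.

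**Figure D1:**
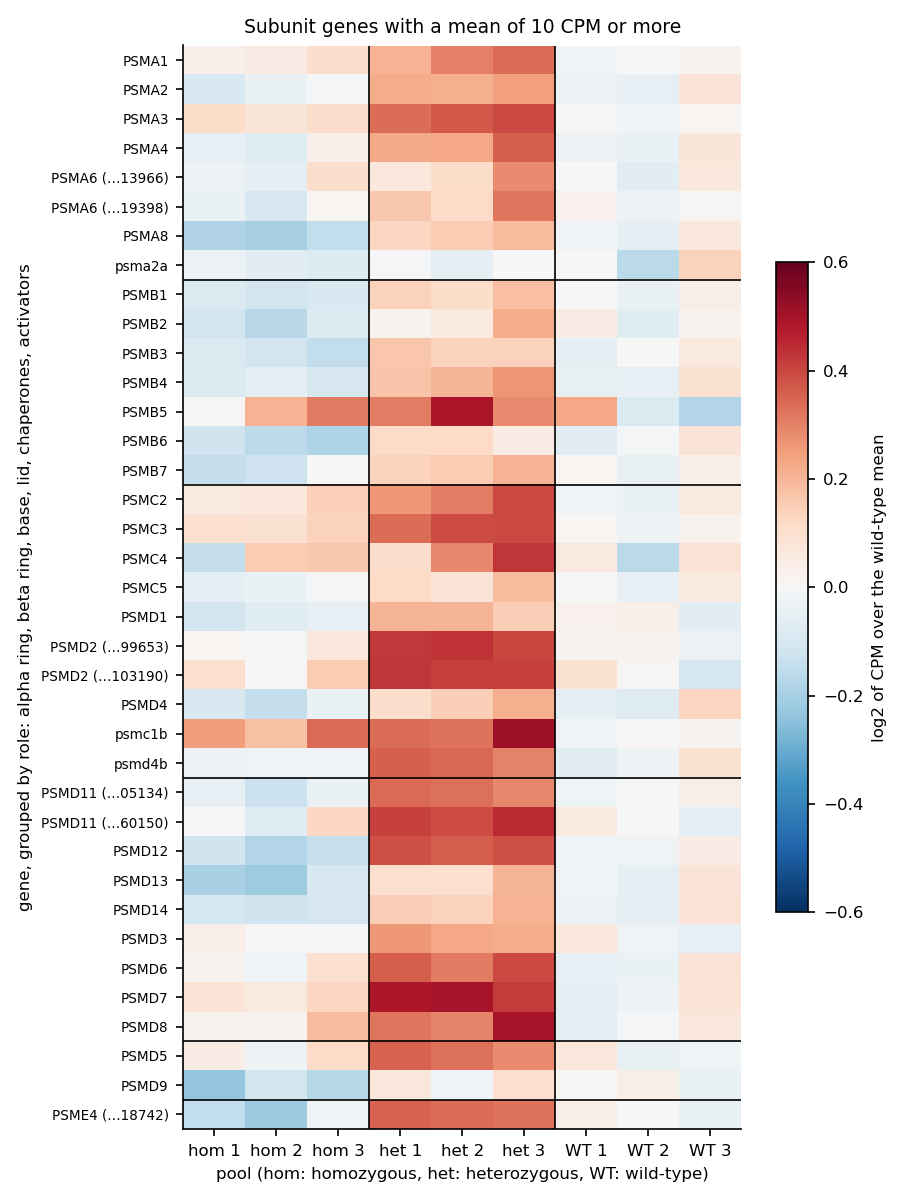
Level of each of the 37 subunit genes outside the immune role with a mean of 10 CPM or more in each of the 9 pools, as the log2 of CPM over the mean of the 3 wild-type pools; rows are genes grouped by role and columns are pools (hom, homozygous; het, heterozygous; WT, wild-type). The heterozygous columns are red for most rows, the homozygous columns are pale, and psma2a (ENSDARG00000040121) is a row with no such step.

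Heterozygous pools were highest in the sums of the ring, base, lid, cap chaperone and activator roles, by differing amounts. The lid sum was 1143, 1116 and 1182 CPM in homozygous, 1449.9, 1431 and 1478 CPM in heterozygous and 1158, 1146 and 1207 CPM in wild-type pools. The base sum was 1375, 1386 and 1439.7 CPM in homozygous, 1659.9, 1679 and 1707 CPM in heterozygous and 1385, 1364 and 1386 CPM in wild-type pools. For each of these roles the heterozygous pools did not overlap with the others. The excess of the heterozygous over the wild-type mean was 27.6% for activators, 24.1% for the lid, 22.1% for the base, 17.8% for cap chaperones, 16.8% for the alpha ring and 11.4% for the constitutive beta ring. The difference of homozygous from heterozygous means was -24.1% for activators, -21.0% for the lid and between -16.1% and -16.7% for the other 4 of these roles. Homozygous means differed from wild-type means by 1.61% for the base, -1.72% for cap chaperones and -1.98% for the lid. The differences were -2.33% for the alpha ring, -3.12% for activators and -6.53% for the constitutive beta ring. That beta ring sum was 853, 850 and 867 CPM in homozygous pools, all below the 910, 892 and 947 CPM of wild-type pools. These sums weight genes by their level and were not tested, and whether the roles differ from each other was not tested either. The activator sum was mostly that of 1 ID, PSME4 (ENSDARG00000018742), with a mean of 105 of 116 CPM in heterozygous pools. In whole embryos, a change in RNA per cell and a change in the share of cells cannot be told apart.

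**Figure D2:**
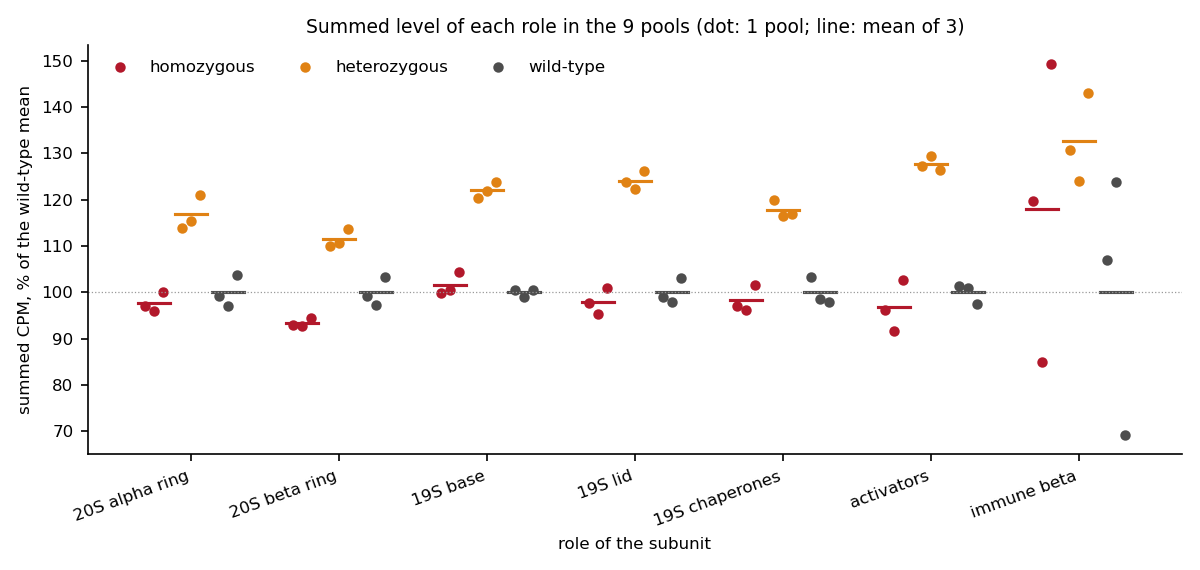
Summed CPM of each role in each pool, as a percentage of the wild-type mean of that role; each dot is 1 pool and each line the mean of 3 pools, and the axis starts at 65%. In the first 6 roles the 3 heterozygous dots lie above all others, and in the immune role, whose summed level was 5.46 to 11.8 CPM, the genotypes overlap.

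In the alpha ring, 6 of 8 tested genes rose in heterozygous against wild-type embryos and 6 of 8 fell in homozygous against heterozygous embryos. Of all tested genes, 15.5% rose and 19.4% fell in these comparisons. PSMA3 was at 157, 154 and 157 CPM in homozygous, 184, 188 and 192 CPM in heterozygous and 146, 144 and 147 CPM in wild-type pools. Its 3 groups did not overlap, with wild-type pools lowest. PSMA3 rose in heterozygous against wild-type embryos (log2 0.37 ± 0.04 SE, adjusted p = 5.70e-06) and fell in homozygous against heterozygous embryos (-0.27 ± 0.04, adjusted p = 5.27e-05), while homozygous against wild-type did not pass (0.10 ± 0.04, adjusted p = 0.0701). PSMA1 was at 145, 147 and 153 CPM in homozygous, 164, 175 and 179 CPM in heterozygous and 139.8, 142 and 144 CPM in wild-type pools, and it moved in the same way (heterozygous against wild-type 0.28 ± 0.05, adjusted p = 1.81e-04).

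PSMA8, whose entry in the RefSeq names table carries psma7 as a synonym, was at 211, 209 and 216 CPM in homozygous, 262, 266 and 273 CPM in heterozygous and 236, 231 and 251 CPM in wild-type pools. Here homozygous pools were lowest, and PSMA8 was the 1 alpha gene called in homozygous against wild-type embryos (-0.18 ± 0.04, adjusted p = 0.00357). It rose in heterozygous against wild-type embryos by 0.16 ± 0.04 (adjusted p = 0.0119), a call lost without heterozygous replicate 3 (adjusted p = 0.0510) or wild-type replicate 2 (0.0693), and fell in homozygous against heterozygous embryos (-0.33 ± 0.04, adjusted p = 1.11e-05). PSMA4 was at 119, 116 and 126 CPM in homozygous, 144, 144 and 157 CPM in heterozygous and 120.0, 119.7 and 129 CPM in wild-type pools (heterozygous against wild-type 0.27 ± 0.05, adjusted p = 7.09e-04).

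The other alpha genes come as pairs of IDs. PSMA2 was at 80.8, 83.6 and 85.4 CPM in homozygous, 100.4, 99.8 and 102 CPM in heterozygous and 84.1, 83.2 and 90.8 CPM in wild-type pools, and its rise (0.23 ± 0.05, adjusted p = 0.00175) and fall (-0.28 ± 0.05, adjusted p = 1.90e-04) both passed. Its paralogue psma2a was called in none of the 3 comparisons. PSMA6 (ENSDARG00000019398) was at 82.9, 79.8 and 86.0 CPM in homozygous, 95.3, 92.4 and 107 CPM in heterozygous and 86.7, 83.6 and 85.7 CPM in wild-type pools. It rose by 0.20 ± 0.06 (adjusted p = 0.0105), a call lost without heterozygous replicate 3 (0.13, adjusted p = 0.0765), and it fell by 0.24 ± 0.06 in homozygous against heterozygous embryos (adjusted p = 0.00188). PSMA6 (ENSDARG00000013966) was at 0.16 ± 0.06 in heterozygous against wild-type (adjusted p = 0.0801) and -0.15 ± 0.06 in homozygous against heterozygous embryos (adjusted p = 0.0717). It passed under 2 alternatives in the first (0.0465 without heterozygous replicate 1) and 4 in the second (0.0330 without homozygous replicate 3, 0.0378 without heterozygous replicate 1).

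In the constitutive beta ring, 5 of 7 genes rose in heterozygous against wild-type embryos and 6 of 7 fell in homozygous against heterozygous embryos. The shares of all tested genes were 15.5% and 19.4%. PSMB6, PSMB7 and PSMB5 carry the 3 cutting activities named caspase-like, trypsin-like and chymotrypsin-like. PSMB6 was at 117, 114 and 112 CPM in homozygous, 138, 138 and 132 CPM in heterozygous and 121, 126 and 134 CPM in wild-type pools. Homozygous pools were the lowest, and 1 wild-type pool reached the heterozygous range. PSMB6 fell in homozygous against wild-type embryos (-0.15 ± 0.05, adjusted p = 0.0153), a call lost without wild-type replicate 3 (-0.12, adjusted p = 0.0530), and in homozygous against heterozygous embryos (-0.25 ± 0.05, adjusted p = 4.82e-04), and its difference between heterozygous and wild-type embryos was 0.10 ± 0.05 (adjusted p = 0.153, and 0.0367 without that library).

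PSMB7 was at 177, 179 and 195 CPM in homozygous, 215, 217 and 225 CPM in heterozygous and 197, 189 and 199 CPM in wild-type pools, with heterozygous pools on top. It rose in heterozygous against wild-type embryos (0.17 ± 0.05, adjusted p = 0.0137), which was lost without heterozygous replicate 3 (0.0591) or wild-type replicate 2 (0.0700), and fell in homozygous against heterozygous embryos (-0.25 ± 0.05, adjusted p = 3.65e-04). PSMB5 had the widest spread of the ring, at 22.3, 25.6 and 27.6 CPM in homozygous, 27.4, 31.2 and 27.1 CPM in heterozygous and 26.1, 20.9 and 19.7 CPM in wild-type pools. Its rise in heterozygous against wild-type embryos (0.37 ± 0.11, adjusted p = 0.0219) was lost under 4 alternatives, among them leaving out heterozygous replicate 2 or wild-type replicate 2 or 3 (adjusted p between 0.0795 and 0.0849), and homozygous pools overlapped with both other genotypes.

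Among the beta subunits without a cutting activity, PSMB4 was at 158, 160.4 and 157 CPM in homozygous, 188, 192 and 201 CPM in heterozygous and 162, 162 and 178 CPM in wild-type pools. It rose in heterozygous against wild-type embryos (0.21 ± 0.05, adjusted p = 0.00278) and fell in homozygous against heterozygous embryos (-0.29 ± 0.05, adjusted p = 1.01e-04). PSMB3 was at 118, 116 and 113 CPM in homozygous, 141, 138 and 138 CPM in heterozygous and 121, 125 and 131 CPM in wild-type pools, with all 3 groups apart. Its fall in homozygous against wild-type embryos (-0.12 ± 0.05, adjusted p = 0.0455) was lost under 8 alternatives (up to 0.117, without wild-type replicate 3), and its rise in heterozygous against wild-type embryos (0.15 ± 0.05, adjusted p = 0.0208) under 4 (up to 0.0928, without wild-type replicate 1), while its fall in homozygous against heterozygous embryos was larger (-0.26 ± 0.05, adjusted p = 1.60e-04). PSMB1 (159, 156 and 158 CPM in homozygous, 186, 182 and 191 CPM in heterozygous, 169, 164 and 173 CPM in wild-type pools) had the same order of groups, and its rise (0.14 ± 0.04, adjusted p = 0.0165) was lost without heterozygous replicate 3 (0.0727) or wild-type replicate 2 (0.0788). PSMB2 (102, 98.4 and 104 CPM in homozygous, 112, 115 and 129 CPM in heterozygous, 114, 105 and 112 CPM in wild-type pools) was called lower in homozygous than heterozygous embryos (-0.23 ± 0.06, adjusted p = 0.00335). For 5 of 7 genes of this ring the homozygous pools all lay below the wild-type pools, against 25.3% of all tested genes, and 2 of them, PSMB3 and PSMB6, were called.

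**Figure D3:**
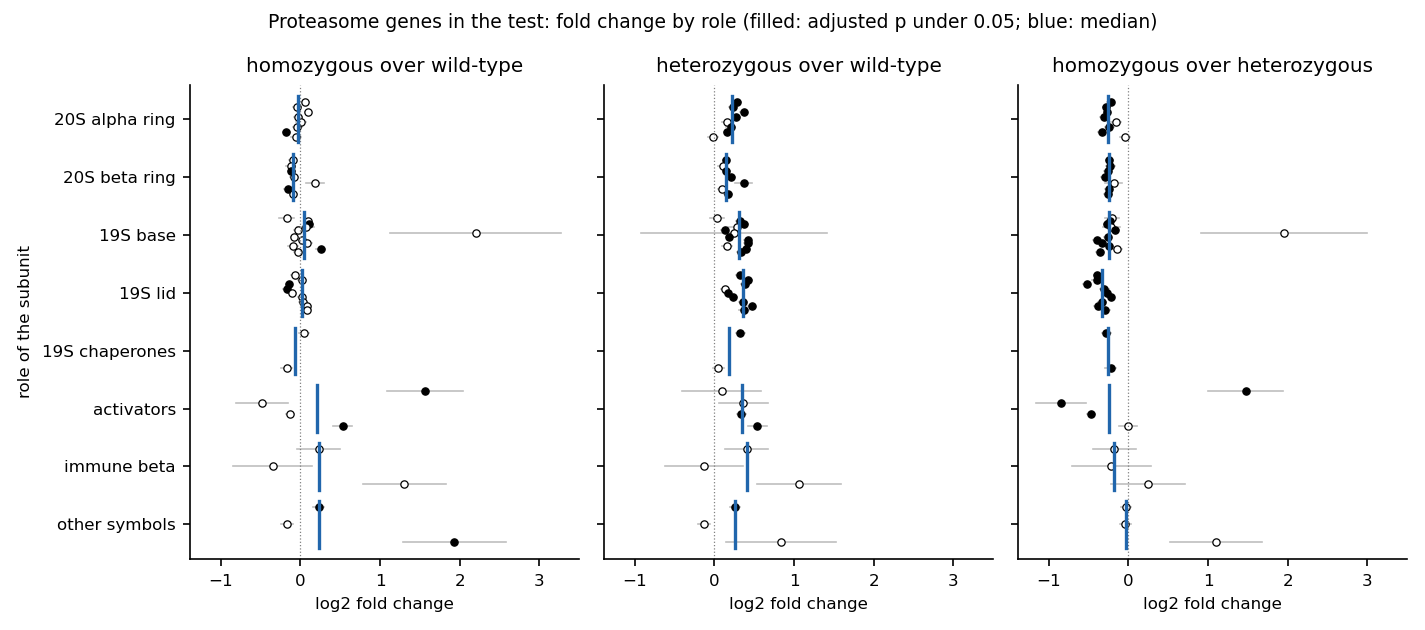
Log2 fold change (x axis) of the 48 tested genes by role (y axis) in the 3 comparisons; dots are genes, filled where the adjusted p was under 0.05, grey lines are ± 1 SE and blue lines the median of the role. In the middle panel the medians of the ring, base, lid and chaperone roles lie between 0.15 and 0.36, in the right panel between -0.33 and -0.24, and in the left panel near 0; the wide grey line of the base is PSMC6.

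In the base, 8 of 12 genes rose in heterozygous against wild-type embryos and 8 of 12 fell in homozygous against heterozygous embryos. The shares of all tested genes were 15.5% and 19.4%. PSMD2, the large scaffold subunit of the base, is listed under 2 IDs. Its ID ENSDARG00000099653 was at 152, 149 and 158 CPM in homozygous, 202, 203 and 199 CPM in heterozygous and 152, 153 and 147 CPM in wild-type pools. Homozygous and wild-type pools overlapped, and the heterozygous pools stood well above them. PSMD2 (ENSDARG00000099653) rose in heterozygous against wild-type embryos by 33.8% (log2 0.42 ± 0.04, adjusted p = 1.96e-06) and fell in homozygous against heterozygous embryos (-0.40 ± 0.04, adjusted p = 1.07e-06), and its difference between homozygous and wild-type embryos was 0.02 ± 0.04 (adjusted p = 0.704).

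The ATPase gene PSMC3 was at 187, 187 and 192 CPM in homozygous, 221, 229 and 231 CPM in heterozygous and 176, 171 and 178 CPM in wild-type pools. Its rise in heterozygous against wild-type embryos was 0.37 ± 0.04 (adjusted p = 5.14e-06). Its smaller rise in homozygous against wild-type embryos (0.11 ± 0.04, adjusted p = 0.0431) was lost under 12 alternatives (up to 0.149, without wild-type replicate 2). The ubiquitin receptor gene psmd4b was at 93.3, 93.8 and 94.3 CPM in homozygous, 123, 121 and 117 CPM in heterozygous and 91.4, 93.5 and 102 CPM in wild-type pools (heterozygous against wild-type 0.33 ± 0.05, adjusted p = 7.15e-05).

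The second PSMD2 ID, ENSDARG00000103190, was at 114, 107 and 119 CPM in homozygous, 144, 142 and 142 CPM in heterozygous and 114, 107 and 99.2 CPM in wild-type pools, and its rise had the same size (0.42 ± 0.05, adjusted p = 1.95e-05). PSMD1, the other large scaffold, was at 288, 295 and 300.4 CPM in homozygous, 358, 358 and 344 CPM in heterozygous and 316, 318 and 298 CPM in wild-type pools. Its rise was smaller (0.18 ± 0.04, adjusted p = 0.00342), and its fall in homozygous against heterozygous embryos was -0.26 ± 0.04 (adjusted p = 1.01e-04). PSMC2, an ATPase of the ring, was at 156, 157 and 165 CPM in homozygous, 179.5, 186 and 197 CPM in heterozygous and 148, 146 and 156 CPM in wild-type pools (heterozygous against wild-type 0.32 ± 0.05, adjusted p = 9.34e-05).

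Other base genes were nearer to the threshold. PSMC5 was at 174, 177 and 180.2 CPM in homozygous, 197, 192 and 207 CPM in heterozygous and 180.3, 176 and 189 CPM in wild-type pools, and its rise (0.13 ± 0.05, adjusted p = 0.0420) was lost under 10 alternatives (up to 0.191, without heterozygous replicate 3). PSMC4 spread within genotypes, at 57.2, 70.2 and 70.6 CPM in homozygous, 68.0, 77.1 and 85.0 CPM in heterozygous and 65.8, 56.5 and 67.0 CPM in wild-type pools, and its value was 0.28 ± 0.11 (adjusted p = 0.0826). It passed under 6 alternatives (0.0151 to 0.0457), with DESeq2 and limma-voom and without heterozygous replicate 1 (0.0243) or homozygous replicate 1 (0.0261) among them. PSMD4, the paralogue of psmd4b, was at 59.4, 57.4 and 61.6 CPM in homozygous, 68.1, 70.2 and 73.7 CPM in heterozygous and 60.8, 60.1 and 69.2 CPM in wild-type pools. Its heterozygous and wild-type pools overlapped (0.16 ± 0.06, adjusted p = 0.0534), and it passed under 5 alternatives (0.00470, without wild-type replicate 3, to 0.0450).

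The ATPase gene psmc1b had another pattern. It was at 84.4, 79.9 and 89.7 CPM in homozygous, 89.5, 88.7 and 101 CPM in heterozygous and 69.7, 71.1 and 71.7 CPM in wild-type pools, so that both mutant groups were above wild type and overlapped with each other. It rose in homozygous against wild-type embryos (0.26 ± 0.06, adjusted p = 0.00160) and in heterozygous against wild-type embryos (0.39 ± 0.06, adjusted p = 7.25e-05), and homozygous against heterozygous did not pass (-0.14 ± 0.06, adjusted p = 0.0678), though it did under 4 alternatives (0.0341, without homozygous replicate 3, to 0.0480). PSMC1, its paralogue by name, was at 8.68, 9.55 and 8.79 CPM in homozygous, 10.4, 10.7 and 10.1 CPM in heterozygous and 10.9, 10.7 and 9.001 CPM in wild-type pools and was called in no comparison (in homozygous against wild-type -0.17 ± 0.09, adjusted p = 0.130, and 0.0263 without wild-type replicate 3).

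All 9 lid genes fell in homozygous against heterozygous embryos and 8 of 9 rose in heterozygous against wild-type embryos, and for 9 of 9 the 3 heterozygous libraries were above the 6 others. Over all tested genes, 19.4% fell, 15.5% rose and 9.59% had heterozygous libraries so placed. Among genes with a mean of 10 CPM or more, 32.3% fell and 23.1% rose. PSMD12, a scaffold subunit of the lid, had the lowest adjusted p of the 48 tested genes. It was at 144, 138 and 142 CPM in homozygous, 204, 201 and 204 CPM in heterozygous and 154, 154 and 161 CPM in wild-type pools. The 3 groups did not overlap, and homozygous pools were lowest. PSMD12 fell in homozygous against heterozygous embryos by 30.4% (log2 -0.52 ± 0.04, adjusted p = 3.43e-08), rose in heterozygous against wild-type embryos (0.38 ± 0.04, adjusted p = 4.91e-06) and fell in homozygous against wild-type embryos (-0.14 ± 0.04, adjusted p = 0.0103).

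PSMD7, the partner of the deubiquitinase in the lid, was at 127, 125 and 131 CPM in homozygous, 168, 169 and 161 CPM in heterozygous and 116, 118 and 127 CPM in wild-type pools. It had the largest rise among members with a mean of 10 CPM or more in heterozygous against wild-type embryos, 38.2% (log2 0.47 ± 0.05, adjusted p = 2.00e-06). PSMD14, the deubiquitinase itself, was at 99.1 to 100.3 CPM in homozygous, 119, 119 and 124 CPM in heterozygous and 105, 104 and 114 CPM in wild-type pools. Its rise (0.16 ± 0.05, adjusted p = 0.0158) was lost without heterozygous replicate 3 or wild-type replicate 1 or 2 (adjusted p between 0.0634 and 0.0829), and its fall in homozygous against heterozygous embryos was -0.27 ± 0.05 (adjusted p = 2.01e-04).

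PSMD11 (ENSDARG00000005134), a lid subunit that raises proteasome assembly in mammalian stem cells, was at 84.1, 79.7 and 84.8 CPM in homozygous, 110.2, 109.5 and 106 CPM in heterozygous and 85.6, 86.6 and 89.3 CPM in wild-type pools. It rose by 0.32 ± 0.05 in heterozygous against wild-type embryos (adjusted p = 6.38e-05) and its difference in homozygous against heterozygous embryos was -0.39 ± 0.05 (adjusted p = 3.03e-06). PSMD13 was the lid gene not called in heterozygous against wild-type embryos (0.13 ± 0.05, adjusted p = 0.0598), though it passed under 4 alternatives (0.0166, without wild-type replicate 3, to 0.0494). It was at 136, 134 and 145 CPM in homozygous, 166, 167 and 179 CPM in heterozygous and 153, 149 and 164 CPM in wild-type pools, and it fell in homozygous against wild-type embryos (-0.17 ± 0.05, adjusted p = 0.0134), which missed the threshold when homozygous replicate 2 (0.0530) or wild-type replicate 3 (0.0521) was left out.

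The remaining lid genes had nearly equal homozygous and wild-type levels. PSMD6 was at 184, 178 and 194 CPM in homozygous, 233, 225 and 238 CPM in heterozygous and 175, 176 and 192 CPM in wild-type pools (heterozygous against wild-type 0.36 ± 0.05, adjusted p = 4.05e-05). PSMD3 was at 179.7, 175 and 175 CPM in homozygous, 209, 205 and 204 CPM in heterozygous and 183, 172 and 169 CPM in wild-type pools (0.24 ± 0.04, adjusted p = 6.01e-04). PSMD8 was at 119.5, 119.8 and 134 CPM in homozygous, 148, 144 and 166 CPM in heterozygous and 113, 117 and 124 CPM in wild-type pools (0.37 ± 0.06, adjusted p = 1.95e-04). These 3 and the second PSMD11 ID (ENSDARG00000060150, 0.42 ± 0.06, adjusted p = 2.67e-05) differed by 0.02 to 0.08 on the log2 scale between homozygous and wild-type embryos, within the spread of the pools.

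Of the 3 chaperone genes that guide assembly of the cap, 2 were tested. PSMD5 was at 32.1, 30.4 and 33.6 CPM in homozygous, 39.7, 39.0 and 37.9 CPM in heterozygous and 32.6, 30.1 and 30.6 CPM in wild-type pools, and it rose in heterozygous against wild-type embryos (0.32 ± 0.06, adjusted p = 3.85e-04). PSMD9 was at 13.4, 14.5 and 13.9 CPM in homozygous, 16.4, 15.5 and 16.9 CPM in heterozygous and 15.8, 16.1 and 15.2 CPM in wild-type pools. Its heterozygous and wild-type pools overlapped, and its fall in homozygous against heterozygous embryos (-0.22 ± 0.07, adjusted p = 0.0192) was lost without heterozygous replicate 1 or 3 or homozygous replicate 1 (adjusted p between 0.0565 and 0.0966).

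The activators did not move as 1 group. PSME4 encodes PA200, an activator known for its role in sperm development and DNA repair in mammals, and is listed under 2 IDs. The more abundant ID, ENSDARG00000018742, was at 75.2, 71.5 and 81.8 CPM in homozygous, 106, 105 and 105 CPM in heterozygous and 85.6, 83.2 and 81.1 CPM in wild-type pools. It rose in heterozygous against wild-type embryos (0.34 ± 0.05, adjusted p = 1.08e-04) and fell in homozygous against heterozygous embryos (-0.47 ± 0.05, adjusted p = 1.51e-06), as most genes of the core and the cap did. In homozygous against wild-type embryos it was at -0.13 ± 0.05 (adjusted p = 0.0523), and it passed under 9 alternatives (0.00778 to 0.0435), with DESeq2 (0.0214), both other scalings, both other filters and halved counts as well as without replicate 3 of any 1 genotype.

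The second ID, PSME4 (ENSDARG00000087911), was at 9.36, 9.11 and 9.21 CPM in homozygous, 7.69, 11.2 and 8.94 CPM in heterozygous and 5.80, 6.70 and 6.58 CPM in wild-type pools. Both mutant groups lay above wild type and overlapped with each other. It rose in homozygous against wild-type embryos (0.53 ± 0.12, adjusted p = 0.00135) and in heterozygous against wild-type embryos (0.54 ± 0.12, adjusted p = 0.00218), and homozygous against heterozygous was at -0.01 ± 0.12 (adjusted p = 0.968).

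PSME2 encodes the beta subunit of PA28, which is induced by interferon in mammals. It was at 2.51, 2.48 and 2.06 CPM in homozygous, 0.865, 0.844 and 0.832 CPM in heterozygous and 0.363, 1.57 and 0.367 CPM in wild-type pools. Homozygous pools were above all others, and 1 wild-type pool stood well above the other 2. That pool, wild-type replicate 2, was also high for irf1b (10.2 CPM, against 0.932 and 1.47) and TAP1 (2.57 CPM, against 0.466 and 0.441). These genes of antigen presentation and interferon were picked after their values were seen, and irf9 and irf1a were not high there. What set this pool apart was not tested. PSME2 rose in homozygous against wild-type embryos (1.56 ± 0.48, adjusted p = 0.0261) and in homozygous against heterozygous embryos (1.47 ± 0.47, adjusted p = 0.0353), and was the 1 member to rise in the second of these. Without wild-type replicate 2, the high pool, its value against wild-type was 2.68 (adjusted p = 8.53e-07). The first call was lost under 6 alternatives, among them leaving out any 1 homozygous library (adjusted p between 0.0501 and 0.0698), and the second under 7, among them leaving out any 1 homozygous or heterozygous library (0.0631 to 0.106). Without that wild-type pool, PSME2 was also called higher in heterozygous than wild-type embryos (1.21, adjusted p = 0.00350, against 0.09 ± 0.50, adjusted p = 0.915). PSME1, its partner in PA28, had 0 counts in every library.

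PSME3, the nuclear form of PA28, was counted only 17 to 53 times in a library. It was at 0.400, 0.377 and 0.397 CPM in homozygous, 0.819, 0.675 and 0.615 CPM in heterozygous and 0.466, 0.454 and 0.716 CPM in wild-type pools. Its fall in homozygous against heterozygous embryos (-0.85 ± 0.32, adjusted p = 0.0415) was lost under 8 alternatives (up to 0.148, without heterozygous replicate 1).

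**Figure D4:**
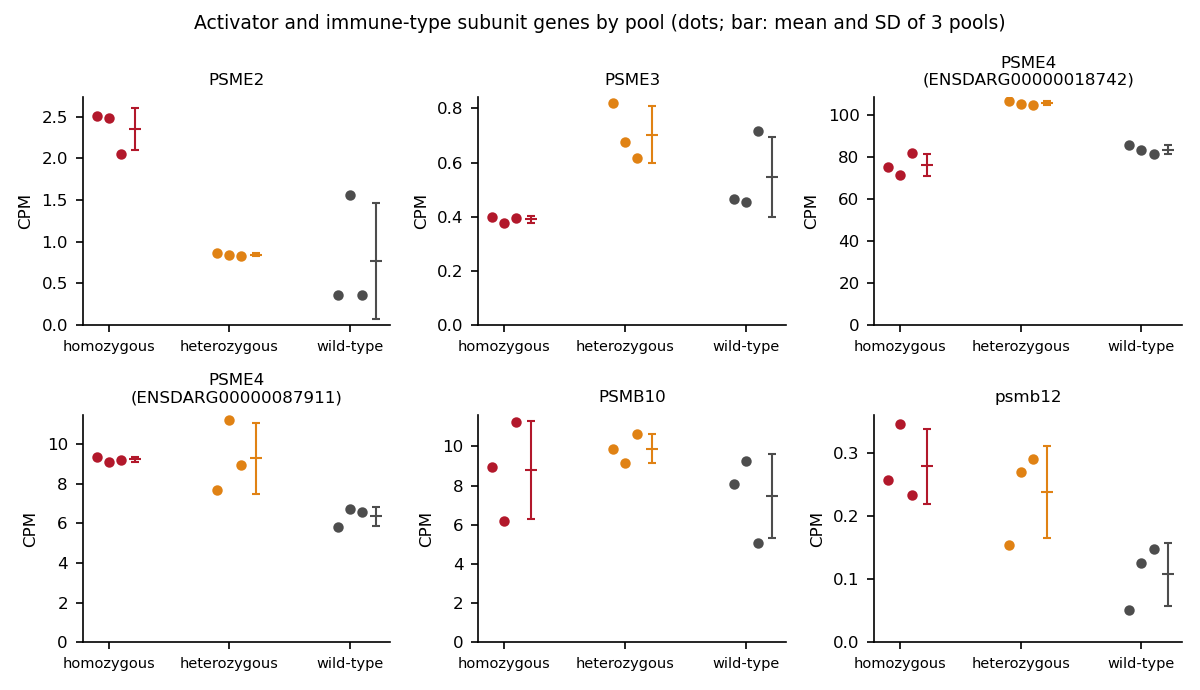
CPM (y axis, from 0) of 4 activator and 2 immune or tissue-specific beta IDs by genotype (x axis); dots are the 3 pools of a genotype and bars their mean and SD. PSME2 is highest in the homozygous pools, PSME4 (ENSDARG00000018742) in the heterozygous pools, and the 3 genotypes overlap for PSMB10.

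The immune and tissue-specific beta genes were scarce. In the RefSeq table (assembly GRCz12tu, used for neighbours only), psmb13a, psmb8a, psmb12 and psmb9a follow each other without another protein-coding gene between them, and psmb11a stands next to psmb5. PSMB10, the immune counterpart of PSMB7, held most of the counts of this role, with 277 to 640 counts in a library. It was at 8.96, 6.20 and 11.2 CPM in homozygous, 9.89, 9.15 and 10.6 CPM in heterozygous and 8.08, 9.24 and 5.09 CPM in wild-type pools. Its groups overlapped in every comparison, and its difference was 0.23 ± 0.27 in homozygous against wild-type embryos (adjusted p = 0.547) and 0.40 ± 0.27 in heterozygous against wild-type embryos (adjusted p = 0.322), so a difference of the size seen in the other roles was not detectable at this spread.

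PSMB9 was at 0.171, 0.126 and 0.234 CPM in homozygous, 0.185, 0.203 and 0.217 CPM in heterozygous and 0.311, 0.219 and 0.147 CPM in wild-type pools, from 8 to 14 counts in a library. psmb12 was at 0.257, 0.346 and 0.234 CPM in homozygous, 0.154, 0.270 and 0.290 CPM in heterozygous and 0.0518, 0.125 and 0.147 CPM in wild-type pools. Both mutant groups were above wild type, but only by 10 to 22 counts in a library against 2 to 8. They did not pass the test (homozygous against wild-type 1.30 ± 0.52, adjusted p = 0.0507). None of the 3 tested genes of this role was called in any comparison by DESeq2 or by edgeR as applied throughout. limma-voom (adjusted p = 0.0464) and 1 other alternative called psmb12 higher in homozygous than wild-type embryos, and 1 gene was at an unadjusted p under 0.05 there in edgeR. PSMB8 and psmb13a had 0 to 6 counts in a library and PSMB11 and psmb11b had 0 in every library. A count of 0 allows a level of up to 3 counts, which was 0.0428 to 0.0777 CPM, and this limit covers counting error only.

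Genes of antigen presentation and interferon signalling were set beside these. Of 17 tested IDs of that list, 8 rose and 2 fell in homozygous against wild-type embryos, where 23.5% and 21.1% of all tested genes did. In homozygous against heterozygous embryos, 9 of the 17 rose and 0 fell, where 20.4% and 19.4% of all tested genes did. With DESeq2, with limma-voom and at an unadjusted p under 0.05 in edgeR, 0 fell there too. irf9, a subunit of the factor that carries interferon signals to the nucleus, was at 30.3, 34.0 and 32.0 CPM in homozygous, 7.60, 8.85 and 8.80 CPM in heterozygous and 4.40, 4.35 and 4.78 CPM in wild-type pools (homozygous against wild-type 2.83 ± 0.09, adjusted p = 5.28e-14). PDIA3, a chaperone of the peptide-loading complex, fell in homozygous against wild-type embryos (-0.56 ± 0.06, adjusted p = 3.53e-07). It was at 167, 167 and 181 CPM in homozygous, 171, 170 and 190 CPM in heterozygous and 244, 244 and 271 CPM in wild-type pools. Both mutant groups thus lay below wild type and overlapped with each other. Of 15 tested IDs of leukocyte markers, 6 rose and 0 fell in homozygous against wild-type embryos, against 23.5% and 21.1% of all tested genes. With DESeq2, with limma-voom and at an unadjusted p under 0.05 in edgeR, 0 of these markers fell too. Their fold changes were positive for 9 and negative for 6. Their summed level was 137 to 144 CPM in homozygous, 126 to 129.6 CPM in heterozygous and 115 to 133 CPM in wild-type pools. The largest part of this sum was CEBPA. It was at 50.9 to 59.4 CPM in homozygous, 55.0 to 60.2 CPM in heterozygous and 55.5 to 55.9 CPM in wild-type pools. LCP1, ptprc and MFAP4 (ENSDARG00000090783) rose by 0.66 ± 0.09, 0.80 ± 0.13 and 0.83 ± 0.15, while IKZF1 (-0.15 ± 0.13), RAG1 (-0.20 ± 0.28) and 3 other MFAP4 IDs (-0.04 to -0.90) had negative values without a call. Of these 3, MFAP4 (ENSDARG00000090557) was at 12.8 CPM in wild-type replicate 2, against 4.45 and 5.18 CPM in the other wild-type pools and 5.61 to 7.95 CPM in homozygous pools. MFAP4 (ENSDARG00000089667) was scarce, at 0.0571 to 0.184 CPM in homozygous and wild-type pools. The defining markers mpx and mpeg1.1 matched no symbol of the table, and lyz, coro1a and lck did not pass the filter on low counts. The part of leukocytes in the level of PSME2 was not tested.

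Counts of PSMA5, PSMC6, PSME1 and the cap chaperone gene PSMD10 were also too low to read. PSMA5 and PSMC6 belong to every known 26S proteasome, yet PSMA5 had 2 counts in 1 heterozygous library and 0 in the other 8. PSMD10 had 2 counts in each of 2 libraries, and PSME1 had none. PSMC6 had 31, 174 and 4 counts in homozygous, 18, 14 and 19 in heterozygous and 4, 20 and 15 in wild-type libraries, so that 1 homozygous library set its fitted difference (homozygous against wild-type 2.20 ± 1.08, adjusted p = 0.146, and 0.0124 without homozygous replicate 3). The way reads were assigned to genes is not given in full in the sources used here, and its part in these levels was not tested.

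psma6l, with 0 to 18 counts in a library, was at 0.257, 0.283 and 0.327 CPM in homozygous, 0.185, 0.101 and 0.109 CPM in heterozygous and 0, 0.125 and 0.0735 CPM in wild-type pools. It rose in homozygous against wild-type embryos by the fitted value of 1.93 ± 0.64 (adjusted p = 0.0212), and it missed the threshold (0.0512 to 0.0603) when homozygous replicate 2, homozygous replicate 3, wild-type replicate 1 or wild-type replicate 3 was left out, while without wild-type replicate 2 it was at 2.72 (0.0167). The 2 non-subunit genes that the symbol rule took in differed from the complex. PSMC3IP was at 19.3 to 20.1 CPM in homozygous, 19.3 to 21.5 CPM in heterozygous and 17.3, 16.8 and 16.7 CPM in wild-type pools and rose in both mutants against wild type. PSME3IP1 was at 32.8 to 37.8 CPM in homozygous, 34.9 to 41.2 CPM in heterozygous and 39.4 to 42.3 CPM in wild-type pools. It was not called in homozygous against wild-type embryos (-0.17 ± 0.07, adjusted p = 0.0625), though it passed under 7 alternatives (0.0259, without heterozygous replicate 3, to 0.0474).

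Paralogues of 1 subunit did not always share the pattern. In 7 pairs of IDs with the same symbol stem, the share of the pair's counts held by 1 of them was compared between genotypes by an exact two-sided permutation test over pools, whose smallest possible p with 3 pools against 3 is 0.10, and 21 comparisons were made. psma2a held 46.9%, 45.4% and 44.7% of the counts of psma2a and PSMA2 in homozygous, 42.0%, 41.3% and 41.8% in heterozygous and 46.6%, 43.9% and 47.0% in wild-type pools. The heterozygous pools were lowest (-4.17 percentage points against wild type, exact permutation p = 0.10, 0.233 after Benjamini-Hochberg adjustment), since PSMA2 rose there and psma2a was at 72.7, 70.1 and 73.1 CPM in heterozygous and 73.3, 65.2 and 80.4 CPM in wild-type pools.

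PSME4 (ENSDARG00000087911) held 11.1%, 11.3% and 10.1% of the counts of both PSME4 IDs in homozygous, 6.74%, 9.65% and 7.88% in heterozygous and 6.34%, 7.45% and 7.50% in wild-type pools. Homozygous pools were above the rest (3.73 points above wild type and 2.74 above heterozygous, exact permutation p = 0.10 each, adjusted 0.233). psmc1b held 90.7%, 89.3% and 91.1% of the counts of psmc1b and PSMC1 in homozygous, 89.6%, 89.2% and 90.9% in heterozygous and 86.5%, 86.9% and 88.8% in wild-type pools, with both mutants above wild type at the same smallest p. For PSMD11 the share of ENSDARG00000060150 overlapped between genotypes in every comparison. No share could pass 0.05 in this design. Near-identical copies can also share reads, so single members of a pair are uncertain.

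Factors that assemble or bind the proteasome were counted next. Of 11 tested assembly and associated factors, 6 rose in heterozygous against wild-type embryos, 7 fell in homozygous against heterozygous embryos, and in homozygous against wild-type embryos 2 rose and 1 fell. Over all tested genes, 15.5% and 19.4% did so, and 23.5% rose and 21.1% fell in homozygous against wild-type embryos. With 11 genes, the list's counts in that last comparison are not read as different from the background. The median of these factors was 0.18 in the first of these comparisons and -0.21 in the second. SEM1, a small lid subunit whose symbol lies outside the rule, was at 92.2, 88.1 and 87.0 CPM in homozygous, 109.6, 108 and 109 CPM in heterozygous and 101, 101 and 122 CPM in wild-type pools and fell in homozygous against wild-type embryos (-0.27 ± 0.06, adjusted p = 0.00177). TXNL1, a thioredoxin bound to the cap, rose in homozygous against wild-type embryos (0.23 ± 0.06, adjusted p = 0.00296). Its level was 94.8 to 103.6 CPM in homozygous, 104.3 to 121 CPM in heterozygous and 83.8 to 85.3 CPM in wild-type pools. PSMF1, an inhibitor of the core, was at 10.2 to 10.7 CPM in homozygous and 8.49 to 9.06 CPM in wild-type pools (0.25 ± 0.09, adjusted p = 0.0367, lost with DESeq2 and without any 1 homozygous or wild-type library, up to 0.109). USP14, a deubiquitinase bound to the cap, was named after its values were seen. It was at 89.6, 90.5 and 97.5 CPM in homozygous, 114, 122 and 127 CPM in heterozygous and 90.8, 91.5 and 98.2 CPM in wild-type pools (heterozygous against wild-type 0.37 ± 0.05, adjusted p = 7.07e-05).

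Next were 10 tested genes of ubiquitin shuttles and of the p97 segregase, which pulls ubiquitinated proteins out of membranes and complexes. Of these, 6 rose in heterozygous against wild-type embryos and 4 fell in homozygous against heterozygous embryos. The shares of all tested genes were 15.5% and 19.4%. Each of the 10 had a mean of 10 CPM or more, and among genes of that level 23.1% rose and 32.3% fell. With 10 genes, the 4 falls are not read as different from that share. A pair of p97 cofactors were named after their values were seen. NPLOC4 was at 48.2, 47.7 and 48.2 CPM in homozygous, 69.8, 68.4 and 71.8 CPM in heterozygous and 46.8, 45.3 and 42.9 CPM in wild-type pools (heterozygous against wild-type 0.64 ± 0.05, adjusted p = 1.30e-07). NSFL1C was at 119, 109 and 118 CPM in homozygous, 166, 169.6 and 166 CPM in heterozygous and 109.6, 112 and 116 CPM in wild-type pools (0.57 ± 0.05, adjusted p = 1.79e-07). Each had the heterozygous pools alone on top, with a larger rise than any proteasome member of 10 CPM or more. VCP, the gene of p97 itself, was also named after its values were seen and had another order. It was at 47.8 to 56.0 CPM in homozygous, 39.5 to 79.98 CPM in heterozygous and 0.570, 16.2 and 16.8 CPM in wild-type pools. Both mutant groups lay above wild type and overlapped with each other, and VCP was not called in homozygous against wild-type embryos. UFD1, the partner of NPLOC4, rose in homozygous against wild-type embryos (0.26 ± 0.05, adjusted p = 2.95e-04), as did the shuttle gene rad23ab (0.64 ± 0.07, adjusted p = 1.33e-06), and FAF1 was at -0.14 ± 0.05 (adjusted p = 0.0513), passing under 9 alternatives (0.0117, without wild-type replicate 3, to 0.0466).

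The 3 named ubiquitin genes had another order, with homozygous embryos highest. UBB (ENSDARG00000002369) was at 56.0, 53.7 and 50.7 CPM in homozygous, 42.1, 38.6 and 47.8 CPM in heterozygous and 24.4, 29.0 and 28.4 CPM in wild-type pools. The 3 genotypes did not overlap, and UBB rose in homozygous against wild-type (0.97 ± 0.08, adjusted p = 1.36e-07), heterozygous against wild-type (0.65 ± 0.08, adjusted p = 3.03e-05) and homozygous against heterozygous embryos (0.32 ± 0.08, adjusted p = 0.00431). ubc, a polyubiquitin gene, was at 1482, 1488 and 1529 CPM in homozygous, 1205, 1279.5 and 1285 CPM in heterozygous and 1149.6, 1178 and 1211 CPM in wild-type pools (homozygous against wild-type 0.35 ± 0.04, adjusted p = 1.88e-06). ubb (ENSDARG00000093313) was at 59.8 to 78.2 CPM in homozygous, 32.2 to 43.0 CPM in heterozygous and 4.66 to 22.7 CPM in wild-type pools (2.12 ± 0.48, adjusted p = 0.0127). Of the 7 tested IDs of the ubiquitin and E1 list, these 3 rose and 1 fell in homozygous against wild-type embryos, where 23.5% and 21.1% of all tested genes did. The fall was that of uba1, the E1 enzyme that activates ubiquitin, which was named after its values were seen. It was at 504, 499 and 518 CPM in homozygous, 645, 640.2 and 640.03 CPM in heterozygous and 547.3, 558 and 547.3 CPM in wild-type pools, the order of PSMD12. uba1 rose in heterozygous against wild-type embryos (0.22 ± 0.04, adjusted p = 3.23e-04) and fell in homozygous against heterozygous embryos (-0.34 ± 0.04, adjusted p = 1.70e-06). Its fall in homozygous against wild-type embryos (-0.12 ± 0.04, adjusted p = 0.0169) was lost without homozygous replicate 2 (0.0530) or wild-type replicate 2 (0.0629).

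The IDs of NFE2L1, the regulator of proteasome genes, were too low to test. Of 8 tested IDs of its relatives, partners and processing enzymes, 2 rose in heterozygous against wild-type embryos and 1 fell, and in homozygous against wild-type embryos 2 rose, NFE2L2 and NGLY1. These counts lie near the shares of all tested genes (15.5%, 14.4% and 23.5%). In homozygous against heterozygous embryos, 3 of the 8 rose and 2 fell, where 20.4% and 19.4% of all tested genes did. With 8 genes, these last counts are not read as different from the background. The fall in heterozygous against wild-type embryos was that of MAFK, a small Maf gene named after its values were seen. MAFK was at 4.59, 4.99 and 3.69 CPM in homozygous and 1.85, 2.40 and 2.32 CPM in heterozygous pools. Its wild-type pools were at 4.35, 3.71 and 3.27 CPM, so the heterozygous pools were lowest. NFE2L2, the oxidative stress factor, was at 50.5, 52.6 and 43.1 CPM in homozygous, 27.2, 26.6 and 26.7 CPM in heterozygous and 29.0, 29.3 and 29.4 CPM in wild-type pools. It rose in homozygous against wild-type embryos (0.74 ± 0.07, adjusted p = 7.98e-08) and was at -0.12 ± 0.07 in heterozygous against wild-type embryos (adjusted p = 0.181), an order unlike that of the summed subunits. nfe2l3, another relative of NFE2L1, was named after its values were seen. It was at 119.2, 118 and 119.2 CPM in homozygous, 159, 157 and 143 CPM in heterozygous and 98.6, 112 and 119.7 CPM in wild-type pools, with heterozygous pools above the 6 others, and rose in heterozygous against wild-type (0.47 ± 0.06, adjusted p = 3.14e-05) and fell in homozygous against heterozygous embryos (-0.37 ± 0.06, adjusted p = 1.68e-04). Against wild type, nfe2l3 in homozygous embryos was at 0.11 ± 0.06 (adjusted p = 0.178, and 0.0341 without wild-type replicate 3). NGLY1, which processes NFE2L1 in mammals, was at 30.4, 30.3 and 32.7 CPM in homozygous, 34.6, 33.6 and 34.3 CPM in heterozygous and 26.4, 28.0 and 29.5 CPM in wild-type pools and rose in heterozygous against wild-type embryos (0.29 ± 0.06, adjusted p = 0.00125). Its smaller rise in homozygous against wild-type embryos was lost under 15 alternatives (up to 0.171, without wild-type replicate 1). MAFG (ENSDARG00000100097), a DNA-binding partner of these factors, was at 0.29 ± 0.12 in homozygous against wild-type embryos (adjusted p = 0.0618, and 0.0488 without wild-type replicate 1).

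The COP9 signalosome, a complex with the same architecture as the lid that removes NEDD8 from ubiquitin ligases, was set beside the lid. Of its 7 tested genes, 4 rose in heterozygous against wild-type embryos and 5 fell in homozygous against heterozygous embryos, where 15.5% and 19.4% of all tested genes did, with medians of 0.22 and -0.22. COPS4 was at 69.3, 67.8 and 75.5 CPM in homozygous, 94.6, 90.8 and 94.8 CPM in heterozygous and 78.8, 78.7 and 82.9 CPM in wild-type pools, the same order of groups as PSMD12. COPS2 fell in homozygous against wild-type embryos (-0.20 ± 0.05, adjusted p = 0.00231) and COPS7A rose (0.43 ± 0.09, adjusted p = 8.04e-04). The level of COPS7A was 23.2 to 29.6 CPM in homozygous, 23.8 to 28.1 CPM in heterozygous and 18.8 to 20.4 CPM in wild-type pools. Heterozygous pools on top were thus also seen outside the proteasome.

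**Figure D5:**
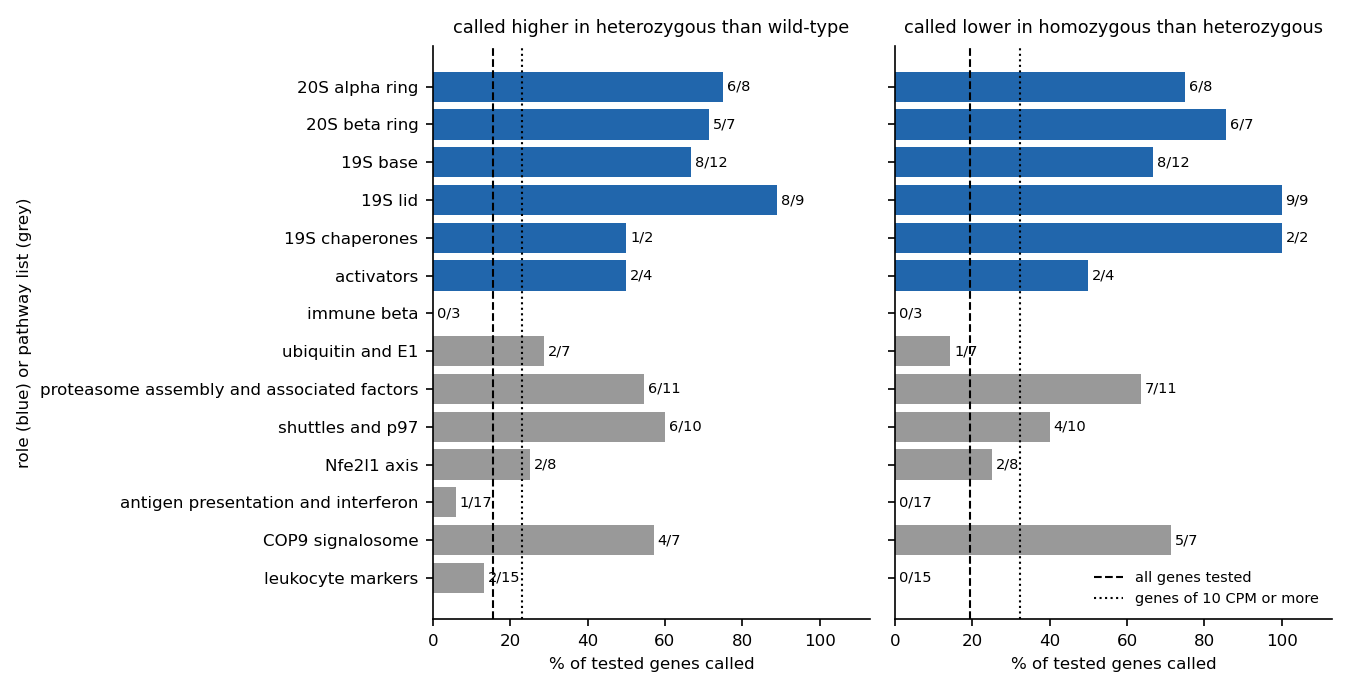
Percentage of tested genes called (x axis) in each role of the proteasome (blue) and each pathway list (grey), with the number called of the number tested beside each bar; the left panel shows genes higher in heterozygous than wild-type and the right panel genes lower in homozygous than heterozygous embryos. Dashed lines mark all tested genes (15.5% and 19.4%) and dotted lines the genes with a mean of 10 CPM or more (23.1% and 32.3%); the bar of the lid reaches 88.9% and 100%.

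In homozygous against wild-type embryos the complex as measured here differed little. The 37 subunit genes outside the immune role with a mean of 10 CPM or more had log2 fold changes from -0.18 to 0.26 with a median of -0.04, where the 9516 genes of that level had a median of -0.02. Rises were called for psmc1b, PSMC3, PSME4 (ENSDARG00000087911), PSME2, psma6l and PSMC3IP, and falls for PSMA8, PSMB3, PSMB6, PSMD12 and PSMD13. The number of falls was 10 with DESeq2 and with both other scalings, which shifted the median of all genes by -0.0124 to -0.0148 on the log2 scale. Without homozygous replicate 2, 3 rises and 3 falls were called. A member that missed the threshold is not shown to be equal between these genotypes.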

How the data were processed

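The submitters' processing notes name cutadapt 1.18, HISAT2 2.1.0, featureCounts 1.6.3 and the build GRCz11 (danRer11). Which annotation release, strand setting and counting options were used is not given in the sources used here, and without strand a gene's reads and those of an overlapping or antisense neighbour cannot be separated. The authors deposited raw counts, whole numbers per Ensembl gene ID with no normalization. Of the counts from 1 to 19, 96.3% to 97.5% in each library were even, so a fragment may count 2, and limits based on 3 counts would then be too low.

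Symbols came from the names table given with the data (29201 of 32520 IDs matched), printed as that table spells them. No transcript length or sequence was used. The test was edgeR 4.0.16 (R 4.3.3), quasi-likelihood with a robust fit, on the counts of all 9 libraries, with the default filter (20375 of 32520 genes kept), TMM scaling (trimmed mean of M values, factors 0.981 to 1.02), no block and Benjamini-Hochberg adjustment over all tested genes within each comparison. A call is an adjusted p under 0.05. CPM uses TMM-scaled library sizes. Standard errors are the absolute log2 fold change over the square root of F. The procedure was tested on simulated counts. DESeq2 1.42.0, limma-voom (limma 3.58.1), other scalings and filters, a replicate block, halved counts and leaving out each library were alternatives.

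The members, roles and lists were chosen with earlier results of these data known. Values in every library are given for all immune or tissue-specific beta and activator genes and, in each other role, for the up to 3 genes of lowest adjusted p in homozygous against wild-type and the up to 2 in each other comparison. From each list the 3 genes of lowest adjusted p in homozygous against wild-type are named, except 1 that is not reported here. Other members were added to give every role in full. With no promoter table, the planned motif description was not made.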

Additional observations from a re-analysis of the deposited data

How the results depend on the processing

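Over the alternatives that kept all libraries, 24 to 34 members were called higher in heterozygous than wild-type embryos (24 with symbols carried by 1 ID), and 25 to 33 without any 1 library. The set with symbols carried by 1 ID uses the same fit without the IDs of PSMA6, PSMD2, PSMD11 and PSME4. It holds fewer members in every comparison, and no call of its members changed. The number lower in homozygous than heterozygous embryos was 27 to 34, and 31 to 34 without any 1 library. Calls kept in every alternative that tested them numbered 23 of 31, 31 of 34 (homozygous against heterozygous, both directions) and 5 of 11 (homozygous against wild-type). In homozygous against wild-type embryos, the falls numbered 10 with DESeq2, RLE scaling and upper-quartile scaling, and 3 to 8 without any 1 library (3 without homozygous replicate 2, 8 without heterozygous replicate 3). The rises numbered 3 among members of 10 CPM or more, a set added after the data were seen, and 3 to 6 without any 1 library. Members higher in homozygous than heterozygous embryos numbered 0 with no filter on low counts and 0 among members of 10 CPM or more, and 0 to 1 without any 1 library. Members lower in heterozygous than wild-type embryos numbered 0 to 1 without any 1 library. Counts over all genes stayed within 1.5 times.

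Same-numbered pools correlated by at most 0.0848 in their deviations from the genotype means, so the numbers were not taken as pairs. In homozygous against heterozygous embryos every library correlated best with its own number, a hint from the data and not the design. With the replicate block, 34 members were called higher in heterozygous than wild-type embryos, 34 lower and 1 higher in homozygous than heterozygous embryos, and 7 higher and 6 lower in homozygous than wild-type embryos. The block ended the calls of PSMB5 (heterozygous against wild-type, adjusted p = 0.0636), PSME3 (homozygous against heterozygous, 0.0551) and LCP1 (homozygous against heterozygous, 0.0736). It added PSMA6 (ENSDARG00000013966; 0.0301), PSMC4 (0.0327), PSMD4 (0.0217) and PSMD13 (0.0179) in heterozygous against wild-type, PSMA6 (ENSDARG00000013966; 0.0261) and psmc1b (0.0354) in homozygous against heterozygous, and psmb12 (0.0472) and PSME3IP1 (0.0449) in homozygous against wild-type embryos.

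Signs turned in 51 values of 26 genes and comparisons, of which 0 were called, and the cause was not tested. In homozygous against wild-type embryos, log2 values without any 1 library ran from -0.0671 to 0.00356 for PSMA4, -0.0485 to 0.0349 for PSMA6 (ENSDARG00000013966), -0.137 to 0.0164 for psma2a, -0.0110 to 0.152 for PSMC4, -0.00199 to 0.0342 for PSMD2 (ENSDARG00000099653), -0.0599 to 0.0195 for psmd4b, -0.0386 to 0.0589 for PSMD11 (ENSDARG00000060150), -0.00813 to 0.0505 for PSMD3, -0.00516 to 0.0732 for PSMD6 and -0.0569 to 0.0194 for USP14. PSMA6 (ENSDARG00000013966) was at -0.0112 with DESeq2, -5.68e-05 with limma-voom, -0.0111 with RLE scaling, -0.00849 with upper-quartile scaling, -0.00190 with no filter, -0.00449 with only the libraries of the compared genotypes and -0.00459 with counts halved. In heterozygous against wild-type embryos the values without any 1 library ran from -0.0953 to 0.0574 for psma2a, -0.369 to 0.126 for PSMB9, -0.0496 to 0.0780 for PSMC1, -0.0475 to 0.524 for PSMC6, -0.253 to 1.21 for PSME2, -0.0354 to 0.0318 for COPS2 and -0.0307 to 0.111 for SEM1. In homozygous against heterozygous embryos they ran from -0.372 to 0.0279 for PSMB10, -0.00561 to 2.47 for PSMC6, -0.129 to 0.15 for PSME4 (ENSDARG00000087911), -0.0656 to 0.0169 for PSMC3IP, -0.0818 to 0.0452 for PSME3IP1, -0.156 to 0.00563 for PSMF1, -0.0247 to 0.0528 for rad23ab, -0.0780 to 0.0105 for PDIA3 and -0.0628 to 0.123 for COPS7A. PSME4 (ENSDARG00000087911) was at 0.0146 with limma-voom and 0.00640 with the replicate block, and rad23ab at -0.000943 with DESeq2, -0.00189 with RLE scaling, -0.00108 with no filter and -0.00171 with counts halved.

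Depth limits the immune genes, PSME3, psma6l and PSMC6, with at most 53 counts in a library except for PSMB10 and 1 PSMC6 library. With 3 pools a genotype, SEs of well-counted members were near 0.05 on the log2 scale, and the smallest difference called in homozygous against wild-type embryos was 0.11 (PSMC3).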
